A study of Homo sapiens with 12 samples.

Results

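The genes for the protein components of the mitochondrial ribosome were described in 12 RNA-seq libraries of a pair of human colon cancer cell lines. The set was taken by name, as every protein-coding gene of GENCODE v44 whose symbol is MRPL or MRPS followed by a digit. This gave 78 genes of the 60617 gene identifiers in the deposited files, and all 78 passed the filter on low counts and were among the 15692 genes tested. The parental line, HCT 116 p53-/-, is a colon carcinoma line that carries a loss of p53. The second line, uL3ΔHCT 116 p53-/-, is derived from it, shares the loss of p53, and is given in the sample labels as a knockout of RPL3, while the study calls it stably silenced. RPL3 encodes uL3, a protein of the large subunit of the cytosolic ribosome. Cells of each line received vehicle or 5 nM actinomycin D (Act D) for 24 h, a drug that at low dose blocks the transcription of ribosomal DNA by RNA polymerase I. Each of the 4 groups held 3 libraries, named biological replicates in the labels without a word on separate cultures, so p-values measure the spread between these libraries. Each line is a single line, so that uL3 status and any other difference between the lines cannot be told apart.

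Mitochondria carry their own ribosome, which makes a small set of hydrophobic subunits of the respiratory chain from messages of the mitochondrial genome. Its ribosomal RNAs are mitochondrial transcripts, whereas all of its proteins are encoded in the nucleus, made in the cytosol by ribosomes that hold uL3, and imported. The MRPL symbols mostly name proteins of the large subunit and the MRPS symbols proteins of the small subunit, and some of them have a bacterial counterpart while others are specific to mitochondria. Exceptions to the naming are MRPS30 and MRPS18A, which sit in the large subunit, and MRPS36, a component of the alpha-ketoglutarate dehydrogenase complex. In the structural nomenclature used here as background, 51 of the 78 genes encode proteins of the large subunit and 26 of the small subunit. Origin was taken from the same names, by which 46 were counted as having a bacterial homologue and 31 as specific to mitochondria. MRPS18A (mL66) and MRPS18B (mS40) fall among the latter by name, although they are related to bacterial S18.

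The total of RSEM expected counts per library was between 10087925 and 21138886. RPL3 itself was not lower in libraries labelled uL3Δ: its level was 1138 ± 15.3 CPM (mean ± SD, n = 3) in the parental line with vehicle, against 1242 ± 82.5 CPM in its uL3Δ-labelled counterpart, and with Act D the levels were 1127 ± 13.7 and 1223 ± 79.8 CPM. CPM are expected counts scaled to the TMM-normalized library size, except in the sums of markers below, which use the library size alone. Since the mRNA went against the label, those libraries are called by their label throughout, and every direction between the lines is that of the labels. The summed level of 10 markers of colon epithelium was between 2843 and 2931 CPM in the parental libraries with vehicle and between 1477 and 1687 CPM in libraries labelled uL3Δ, where 6 of the 7 markers tested were lower and 1, KRT18, was higher. The latter sum was mostly KRT8 (776.9 ± 54.5 CPM) and KRT18 (840.3 ± 51.4 CPM) and hides larger differences. CDH1 was at 66.8 ± 2.34 and 0.445 ± 0.271 CPM, CDX2 at 14.8 ± 0.581 and 0.177 ± 0.0862 CPM, and KRT19 at 608.5 ± 43.7 and 36.6 ± 1.61 CPM. The summed level of 10 mesenchymal markers was between 57.4 and 71.5 CPM in the parental libraries with vehicle and between 2394 and 2589 CPM in libraries labelled uL3Δ, with 6 of the 8 tested higher and 1 lower. CDX1 had at most 1 count in any library. The 4 blood cell markers summed to between 8.27 and 12.3 CPM in the parental libraries with vehicle and to between 19.9 and 26.2 CPM in libraries labelled uL3Δ: CD68, the 1 that was tested, was higher, and CD3E was at 0 in every library. Of 2 endothelial markers PECAM1 was tested and higher, at 0.175 and 0.979 CPM. The part of these differences in the results for the MRP genes was not tested, and in bulk libraries fewer cells with a transcript and less of it per cell cannot be told apart.

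Sequences upstream of the start site are shown first, because genes of this family are known to share short promoter motifs bound by nuclear regulators of mitochondrial biogenesis. RefSeq promoters of build GRCh38.p14, with 250 bases before and 50 bases after the start, were matched by symbol for 69 of the 78 genes. MRPL10, MRPL13, MRPL15, MRPL2, MRPL21, MRPL23, MRPL35, MRPS28 and MRPS36 were not matched. Printed here are the 100 bases before the start of MRPL3, the mitochondrial counterpart of uL3, and of 5 genes that differed strongly between the lines and hold CCGGAAG, the core recognised by ETS factors such as GABP. The first gene was not called, the next pair was higher and the last 3 were lower in libraries labelled uL3Δ with vehicle. Capitals mark CCGGAAG on either strand, and each stretch reads 5′ to 3′ along the gene's strand.
MRPL3, chr3:131502972-131503071 (- strand): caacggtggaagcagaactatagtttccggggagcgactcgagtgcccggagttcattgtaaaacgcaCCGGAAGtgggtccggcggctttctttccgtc
MRPL33, chr2:27771619-27771718 (+ strand): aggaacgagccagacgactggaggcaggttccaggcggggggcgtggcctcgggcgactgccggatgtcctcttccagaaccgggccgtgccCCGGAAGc
MRPL47, chr3:179604639-179604738 (- strand): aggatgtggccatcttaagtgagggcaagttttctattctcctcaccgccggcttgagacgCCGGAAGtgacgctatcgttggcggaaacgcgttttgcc
MRPL27, chr17:50373185-50373284 (- strand): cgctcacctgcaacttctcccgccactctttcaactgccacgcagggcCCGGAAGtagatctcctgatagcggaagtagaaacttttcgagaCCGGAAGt
MRPS23, chr17:57850045-57850144 (- strand): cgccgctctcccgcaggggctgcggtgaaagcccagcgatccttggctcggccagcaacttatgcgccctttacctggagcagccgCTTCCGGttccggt
MRPS26, chr20:3045952-3046051 (+ strand): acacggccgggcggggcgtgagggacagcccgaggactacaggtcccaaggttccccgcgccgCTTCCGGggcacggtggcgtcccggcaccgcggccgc

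The ETS core was in 29 of the 69 MRP promoters (42%), against 18.8% of the promoters of 11319 genes tested and 10.3% of all 35116 promoters of the same length. In 24 of the 29 (82.8%) a match began between 60 bases before and 10 bases after the start, and this was so for 55.8% of the promoters of genes tested that held the core. AANATGGCG, the core of YY1, stood in 18 MRP promoters (26.1%), against 6.58% of genes tested and 3.19% of all promoters, and in 16 of the 18 (88.9%) a match lay after the start, as in 64% of the promoters of genes tested that held this core. GCGCATGCG, the core of NRF1, was in 3 (4.35%, against 3.6% of genes tested and 1.92% of all). The E-box CACGTG was in 6 (8.7%, against 9.87% and 7.26%). Both strands were searched, a YY1 match can share the last 3 bases of an ETS match, and N stands for any base. At least one of the 4 motifs was in 46 MRP promoters (66.7%), against 33.3% of genes tested. The ETS core was present on both sides of the difference between the lines: with vehicle it was in 13 of the 31 matched genes that were higher in libraries labelled uL3Δ, in 7 of the 19 that were lower, and in 9 of the 19 that were not called. The YY1 core was in 9, 5 and 4 of them, respectively. A match of letters is a description of these windows and no measure of binding.

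On the per-length scale, TPM as deposited, the 78 genes covered a moderate range in the parental line. With vehicle the group means ran from 8.19 TPM for MRPS14 to 94.8 TPM for MRPL3, a ratio of 11.6. MRPL3 (94.8 ± 10.5 TPM, SD, n = 3), MRPL27 (93.2 ± 5.42 TPM), MRPS23 (85.7 ± 11.8 TPM) and MRPL51 (85.0 ± 9.97 TPM) were the highest, and these neighbours in the order did not differ beyond their spread. In the libraries labelled uL3Δ the order changed at both ends. MRPL21 and MRPL33 were then highest, with MRPL33 at 100.4 ± 6.51 TPM, while MRPL27 stood at 34.9 ± 5.81 TPM and MRPS23 at 31.7 ± 5.37 TPM. MRPL23 was lowest, at 3.00 ± 0.886 TPM, and MRPS17 next, at 3.28 ± 0.529 TPM. The ratio of the highest to the lowest group mean was 36.4. Its lowest mean is that of MRPL23, whose RSEM estimate is the least certain of the family. Without MRPL23 the lowest mean was little different, at 3.28 TPM for MRPS17. Over the 78 genes, the Pearson correlation of mean log2 TPM between the lines with vehicle was 0.661. Between vehicle and Act D it was 0.970 within the parental line and 0.986 within libraries labelled uL3Δ, each from the means of 3 libraries and given as a description.

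The family as a whole had no single direction between the lines that held on every scale. Summed over the 78 genes, TPM was between 3018 and 3390 in the parental libraries with vehicle and between 2325 and 2896 in libraries labelled uL3Δ, and with Act D it was between 2891 and 3282 and between 2310 and 2502. Summed CPM at TMM library sizes had the opposite order, between 3968 and 4255 and between 4352 and 4767 with vehicle, and between 4163 and 4328 and between 4417 and 4653 with Act D. On both scales the libraries of the lines did not overlap, and no test was made on either sum. The median RSEM transcript length was 1076 bases for the 78 genes and 2267 bases for all genes tested.

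The first comparison asked how MRP mRNAs differed between the lines with vehicle. Every adjusted p for a gene came from edgeR's quasi-likelihood test on all 12 libraries with Benjamini-Hochberg adjustment over the 15692 genes, and a gene with an adjusted p under 0.05 was called. Of the 78 genes 56 were called (71.8%), against 71.3% of all genes tested and 76.8% of the 7480 protein-coding genes within the MRP range of mean CPM. The number higher in libraries labelled uL3Δ was 34 (43.6%, against 35.1% of all genes tested) and the number lower was 22 (28.2%, against 36.2%). The 3 libraries of one line lay all above or all below those of the other for 57 genes (73.1%, against 72.5%). Few of the differences were large: 11 of the 78 (14.1%) were called with an absolute log2 fold change of at least 1, against 37.7% of all genes tested and 1999 of the 7480 protein-coding genes of like CPM. The median absolute log2 fold change was 0.44, against 0.74 over all genes tested and 0.57 over the protein-coding genes of like CPM.

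The median log2 fold change of the 78 genes was 0.15, with the median of all genes tested at -0.02. With scaling by library size alone, the median of all genes moved to -0.26 and the split of the called MRP genes turned to 20 higher and 34 lower, while the MRP median stood 0.17 above that of all genes under both scalings. With a smooth correction for transcript length the split was 23 higher and 29 lower, and the medians of the family and of all genes were both -0.01. The balance of higher and lower calls therefore depended on the scaling and on transcript length, and no direction is given for the family. Single genes were steadier in the fits to counts: 18 of the 34 called higher and 19 of the 22 called lower kept their call under all 14 alternatives run. The sign turned under at least 1 alternative for 2 of the 34 and for 0 of the 22, and 0 were called in the opposite direction. Such counts were not made over all genes tested, so they are not read as a trait of the family. None of the 14 used TPM. On that scale with vehicle, MRPL11, MRPS34, MRPS10, MRPL44 and MRPL9, all among the 18, did not differ beyond their spread. MRPL11 was at 61.9 ± 1.55 TPM in the parental line and at 59.6 ± 13.2 TPM in libraries labelled uL3Δ. MRPS34 was at 83.4 ± 6.14 and 83.7 ± 4.74 TPM, and MRPS10 at 20.2 ± 2.94 and 20.9 ± 1.59 TPM. MRPL44 was at 25.1 ± 1.06 and 28.2 ± 4.37 TPM, and MRPL9 at 35.4 ± 3.37 and 41.6 ± 9.13 TPM. MRPL21, also among the 18, was higher, at 56.3 ± 7.31 and 109.4 ± 12.6 TPM.

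**Figure D1:**
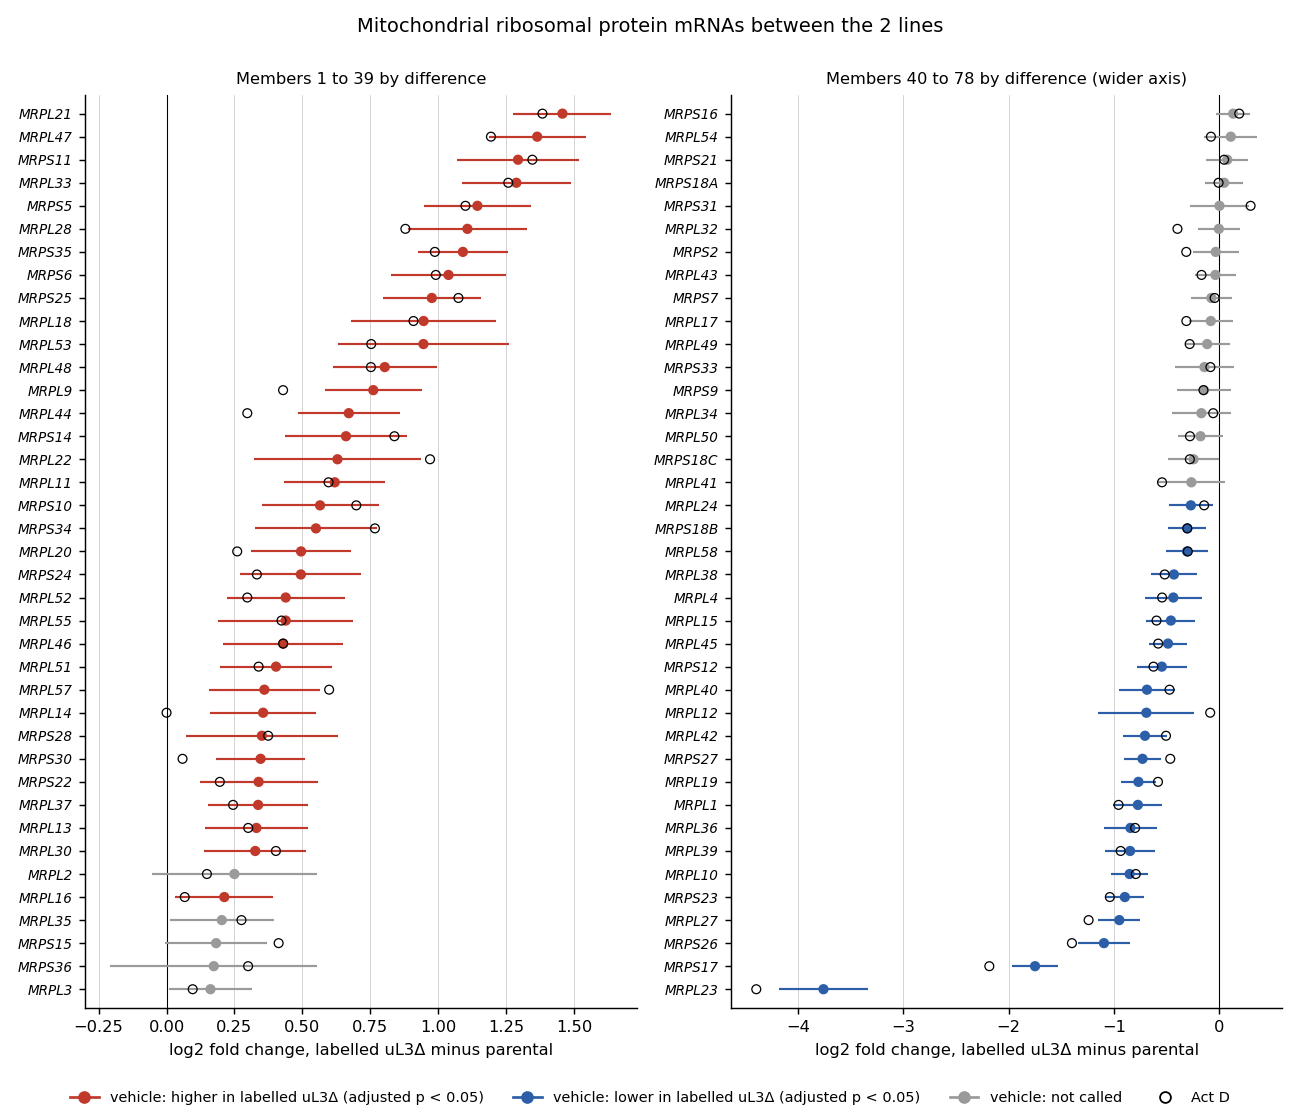
Difference of each MRP mRNA between the lines, as the log2 fold change of the libraries labelled uL3Δ minus the parental libraries (horizontal axis) for the 78 genes in order of the difference with vehicle; filled points with 95% intervals are vehicle, coloured where the adjusted p was under 0.05, and open circles are Act D. The 34 genes higher and 22 lower with vehicle shade into each other without a gap, except for MRPL23 at -3.76 and MRPS17 at -1.75, and the open circles follow the filled points.

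Among the genes that were lower in libraries labelled uL3Δ, the furthest was MRPL23 (ENSG00000214026; hg38, chromosome 11, bases 1947278 to 1984522), which encodes uL23m, a large-subunit protein whose bacterial counterpart lies at the exit of the peptide tunnel. Its level was 27.2, 32.2 and 33.5 CPM in the 3 parental libraries with vehicle and 1.85, 2.25 and 2.70 CPM in libraries labelled uL3Δ. The groups were far apart, with a log2 fold change of -3.76 ± 0.20 (SE, adjusted p = 1.12e-11), or 13.5-fold. RSEM's own posterior standard deviation reached 57.4% of the count of MRPL23 in the library where it was largest and was at most 2.1% for every other MRP gene, and its lowest count was 13. With Act D its level was 30.9, 48.8 and 31.8 CPM and 1.96, 1.71 and 1.51 CPM, again without overlap, with a log2 fold change of -4.40 ± 0.22 (adjusted p = 7.59e-12).

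MRPS17 (chromosome 7, bases 55951877 to 55956500) encodes uS17m, a protein of the small subunit that binds its ribosomal RNA. It was at 36.4, 32.6 and 31.6 CPM in the parental libraries and at 10.3, 10.6 and 9.05 CPM in libraries labelled uL3Δ with vehicle, a log2 fold change of -1.75 ± 0.11 (adjusted p = 6.49e-11). All 3 parental values were about 3 times those of the other line. MRPS26 (chromosome 20, bases 3046052 to 3048250) and MRPS23 (chromosome 17, bases 57834781 to 57850056) encode small-subunit proteins that bacteria lack. MRPS26 was at 58.3, 61.7 and 52.8 CPM and at 30.4, 24.9 and 25.9 CPM (-1.09 ± 0.12, adjusted p = 1.47e-07). MRPS23 was at 137, 132 and 116 CPM and at 69.9, 74.1 and 63.1 CPM (-0.90 ± 0.09, adjusted p = 5.73e-08). For both, every parental library was higher than every library labelled uL3Δ. MRPL27 (chromosome 17, bases 50367857 to 50373207), the homologue of bacterial L27 near the peptidyl transferase centre, was at 67.0, 72.4 and 63.5 CPM and at 37.4, 36.8 and 30.9 CPM (-0.95 ± 0.09, adjusted p = 6.81e-08).

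Among the genes that were higher, MRPL21 (chromosome 11, bases 68891276 to 68903835), which encodes the large-subunit protein bL21m, was furthest. It was at 43.2, 39.1 and 37.4 CPM in the parental libraries and at 110.4, 113 and 105 CPM in libraries labelled uL3Δ with vehicle, and the log2 fold change was 1.46 ± 0.09 (adjusted p = 4.49e-11). The lowest of the latter was more than double the highest of the former. MRPL47 (chromosome 3, bases 179588285 to 179604649) encodes uL29m, a homologue of a bacterial protein at the tunnel exit, and was at 53.8, 49.3 and 50.6 CPM and at 136, 139 and 121 CPM (1.36 ± 0.08, adjusted p = 1.01e-10). MRPS11 (chromosome 15, bases 88467453 to 88480776), which encodes uS11m of the small-subunit platform, was at 24.7, 25.5 and 23.6 CPM and at 60.8, 61.6 and 58.4 CPM (1.29 ± 0.11, adjusted p = 4.9e-09). Neither gene showed any overlap between the lines. MRPL33 (chromosome 2, bases 27771717 to 27988087; bL33m of the large subunit) was at 26.1, 26.0 and 24.4 CPM and at 59.9, 65.7 and 61.0 CPM (1.29 ± 0.09, adjusted p = 1.07e-09). MRPS5 (chromosome 2, bases 95085369 to 95122006; uS5m of the small subunit) was at 54.3, 50.2 and 42.2 CPM and at 111, 109 and 104 CPM (1.14 ± 0.09, adjusted p = 3.95e-09). Of the other genes past a log2 fold change of 1, MRPL28 (bL28m) differed by 1.11 ± 0.10, MRPS35 (mS35) by 1.09 ± 0.08 and MRPS6 (bS6m) by 1.04 ± 0.10. MRPL33 shares 324 exon bases with BABAM2, MRPL28 shares 223 with PGAP6 and MRPS6 shares 265 with SLC5A3, each on the same strand, so reads from these bases may be split between the genes.

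**Figure D2:**
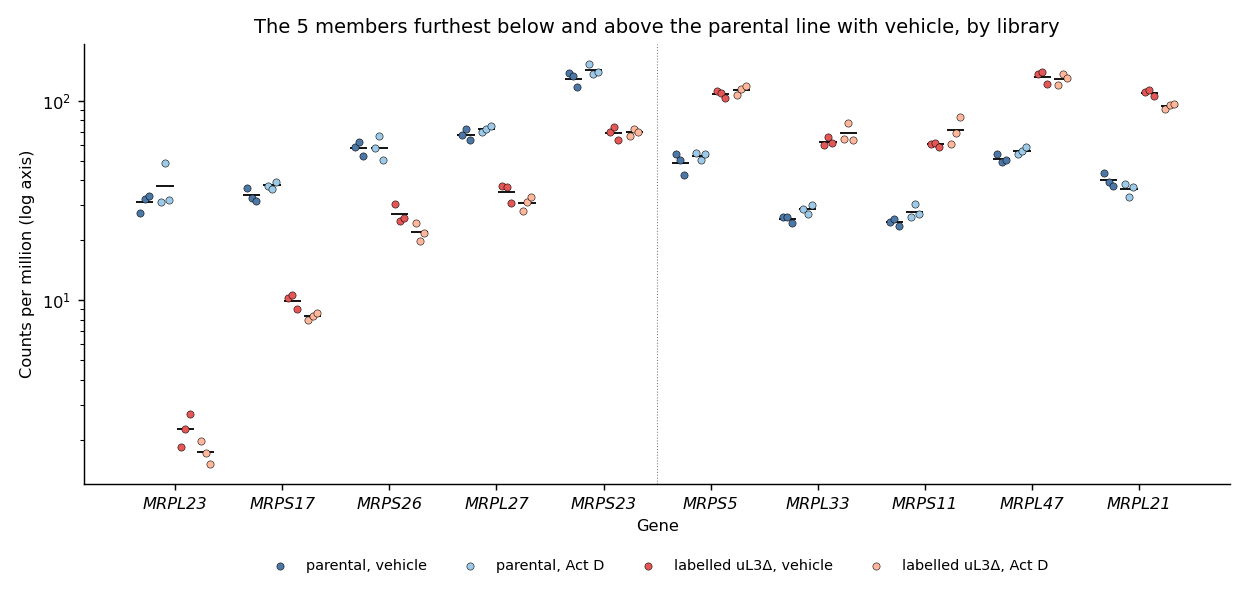
Level of the 5 MRP genes furthest below and the 5 furthest above the parental line with vehicle, in CPM on a log axis, 1 point per library and a line at the mean of each group of 3. For each of the 10 genes the libraries labelled uL3Δ lie apart from the parental libraries with vehicle and with Act D, with MRPL23 near 2 CPM in the former.

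The members chosen for their role spread over both directions. MRPL3 (uL3m), the mitochondrial counterpart of the protein named in the line, was at 201, 188 and 181 CPM in the parental libraries and at 211, 219.7 and 207 CPM in libraries labelled uL3Δ with vehicle. The groups did not overlap, but the difference of 0.16 ± 0.07 on the log2 scale (95% interval from 0.01 to 0.31) missed the threshold (adjusted p = 0.0552). DESeq2 gave it an adjusted p of 0.0303, and with scaling by library size alone its log2 fold change was -0.079. On the TPM scale MRPL3 had the opposite order, also without overlap. It was at 94.8 ± 10.5 TPM in the parental line and at 75.5 ± 9.41 TPM in libraries labelled uL3Δ. MRPL11 (uL11m), at the base of the stalk where translation factors bind, was higher (0.62 ± 0.09, adjusted p = 5.96e-06), though not on the TPM scale (61.9 ± 1.55 and 59.6 ± 13.2 TPM). MRPL44 (mL44), which has an RNase III-like fold, was higher too (0.67 ± 0.09, adjusted p = 2.66e-06). On the TPM scale its libraries overlapped as well (25.1 ± 1.06 and 28.2 ± 4.37 TPM). MRPL12 (bL12m), a stalk protein that also binds mitochondrial RNA polymerase, was lower (-0.69 ± 0.22, adjusted p = 0.0083). Its libraries overlapped, however, at 44.7, 53.2 and 67.4 CPM and at 47.2, 28.5 and 27.5 CPM, and the call was lost with DESeq2 (adjusted p = 0.0547) and without parental vehicle replicate 3 (log2 fold change -0.52, adjusted p = 0.0536).

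MRPS12 (uS12m), a protein of the decoding centre, was lower in libraries labelled uL3Δ with vehicle (-0.54 ± 0.11, adjusted p = 0.000303). So was MRPL58 (mL62), a peptidyl-tRNA hydrolase built into the large subunit (-0.30 ± 0.09, adjusted p = 0.0071), although not without parental vehicle replicate 2 (-0.23, adjusted p = 0.0511). Of the 3 homologues of bacterial S18, 1 was called. MRPS18B (mS40) was lower (-0.30 ± 0.08, adjusted p = 0.00396). MRPS18C (bS18m) differed by -0.24 ± 0.12 (adjusted p = 0.0706; 1956 of its exon bases are shared with ABRAXAS1 on the opposite strand) and MRPS18A (mL66) by 0.05 ± 0.08 (adjusted p = 0.632). MRPS30 (mL65) was higher (0.35 ± 0.08, adjusted p = 0.000673), but with scaling by library size alone its difference was 0.11 (adjusted p = 0.284). On the TPM scale MRPS30 did not differ beyond its spread (43.3 ± 3.94 and 42.9 ± 5.84 TPM). MRPS36, the member outside the mitochondrial ribosome, differed by 0.17 ± 0.18 (95% interval from -0.21 to 0.55, adjusted p = 0.401).

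The genes were also counted by position in the ribosome and by origin, beside 35.1% higher and 36.2% lower of all genes tested with vehicle. There, 23 of the 51 large-subunit genes were higher and 16 lower, with a median log2 fold change of 0.16, and 11 of the 26 small-subunit genes were higher and 6 lower, with a median of 0.11. Of the 46 genes with a bacterial homologue by name 21 were higher and 12 lower (median 0.19), and of the 31 specific to mitochondria by name 13 were higher and 10 lower (median 0.00). With Act D the counts were 21 higher and 19 lower for the large subunit, 12 and 8 for the small subunit, 22 and 14 for genes with a bacterial homologue, and 11 and 13 for those specific to mitochondria. No test was made between these groups.

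The same comparison with Act D used libraries that share none with the vehicle comparison. There, 60 of the 78 genes were called (76.9%, against 70.4% of all genes tested), 33 higher (42.3%, against 35.1%) and 27 lower (34.6%, against 35.3%), and 63 did not overlap between the lines (80.8%, against 74.1%). An absolute log2 fold change of at least 1 with a call was again found for 11 (14.1%, against 37.1%). With both treatments, 50 genes were called in the same direction (30 higher and 20 lower), 0 in opposite directions, 6 only with vehicle, 10 only with Act D and 12 in neither. The 50 were 89.3% of those called with vehicle and 83.3% of those called with Act D. Over the 78 genes the Pearson correlation of the log2 fold changes was 0.973, and 0.962 without MRPL23, a description across genes. Agreement was not counted over all genes tested, of which 71.3% were called with vehicle and 70.4% with Act D. It is therefore not read as a trait of the family. The 5 genes furthest in each direction with vehicle were also the furthest 5 with Act D: MRPS17 differed by -2.18 ± 0.11, MRPS26 by -1.40 ± 0.12, MRPL27 by -1.24 ± 0.10 and MRPS23 by -1.04 ± 0.09. On the higher side MRPL21 differed by 1.38 ± 0.09, MRPS11 by 1.35 ± 0.11, MRPL33 by 1.26 ± 0.10, MRPL47 by 1.19 ± 0.09 and MRPS5 by 1.10 ± 0.09, and the largest adjusted p of these 9 was 1.15e-08. In both comparisons and under every alternative run, 16 genes were called higher and 19 lower, which was likewise not counted over all genes tested. Here too the split turned with the scaling by library size alone (18 higher and 34 lower) and with transcript length (21 higher and 34 lower). Leaving out 1 library also moved it, to 25 higher and 27 lower without parental Act D replicate 3, to 27 and 27 without Act D replicate 3 of the libraries labelled uL3Δ, and to 27 and 26 without their replicate 2.

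The 78 genes lie on 21 chromosomes, and the counts by chromosome are given beside those of all genes there. All of the 7 called genes on chromosome 17, of 8 in all, were lower in libraries labelled uL3Δ with vehicle, and the 8 had a median log2 fold change of -0.59. All 972 genes tested on chromosome 17 had a median of -0.46, with 53.1% lower and 20.4% higher. MRPL27 and MRPS23 are on this chromosome, as are MRPL12 and MRPL58. On chromosome 1, 5 of 8 MRP genes were higher and 1 lower (all genes tested there, 38.9% higher, 33.7% lower, median 0.07), and on chromosome 2 also 5 of 8 were higher and 1 lower (all genes tested there, 36.9% higher, 32.8% lower, median 0.09). On chromosome 16 both MRP genes, MRPL28 and MRPS34, were higher, while all genes tested there had a median of -0.41, with 21.5% higher and 47.3% lower. The genes nearest to MRPL28 were mostly higher too, with 4 of 6 called higher and 0 lower. What part of the MRP differences goes with the chromosome was not tested.

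**Figure D3:**
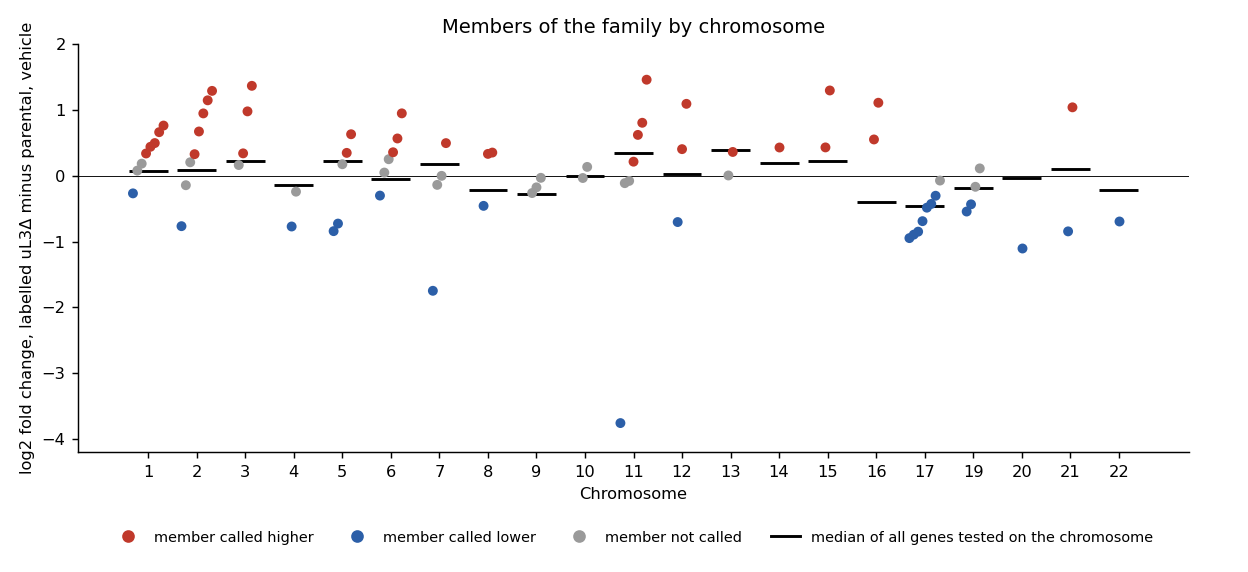
Log2 fold change of the libraries labelled uL3Δ minus the parental libraries with vehicle (vertical axis) for each MRP gene, by chromosome (horizontal axis), with a bar at the median of all genes tested on the chromosome. The MRP genes of chromosome 17 lie around a chromosome median of -0.46, whereas the 2 of chromosome 16 lie above a median of -0.41.

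For the 11 genes with a called log2 fold change of at least 1 with vehicle, the 3 nearest tested protein-coding genes on each side were examined. Their distances were not alike. Some neighbours overlap the MRP gene, as PGAP6 does MRPL28, while KLHL25 lies 2670 kb from MRPS11 and KRCC1 7020 kb from MRPS5. MRPL46, itself of the family, was counted as a neighbour of MRPS11. Of the 66 neighbours, 33 (50%) were called in the direction of the MRP gene, 14 (21.2%) in the opposite direction and 19 were not called, where 35.1% of all genes tested were higher and 36.2% lower. The neighbourhoods differed from gene to gene. Around MRPS17, 5 of 6 neighbours were also lower, among them NIPSNAP2 (-2.15), which shares 54 exon bases with MRPS17 on the same strand, ZNF713 (-2.07) and SUMF2 (-1.26), which shares none. Around MRPL28 and around MRPL33, 4 of 6 were also higher and 0 lower. Around MRPL47, 5 of 6 were also higher, with ACTL6A at 2.11 (123 shared exon bases on the opposite strand) and NDUFB5 at 1.42. Around MRPL23, in contrast, 0 of 6 were lower and 5 were higher, among them LSP1 (4.75), CTSD (2.53) and IGF2 (2.15), so the genes around it did not share the lower level of MRPL23. Around MRPL21, 1 of 6 neighbours was higher and 1 lower. In all, 26 of the 78 genes share exon bases with another tested gene, and since the kit did not mark strand, reads from such bases cannot be told apart by strand.

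The next comparisons asked how MRP mRNAs responded to Act D in each line. In the parental line 6 of the 78 genes were called (7.69%, against 18.7% of all genes tested and 26.7% of the protein-coding genes of like CPM). Of these 4 were higher with Act D (5.13%, against 7.59%) and 2 lower (2.56%, against 11.1%), and 23 did not overlap between treatments (29.5%, against 38.2%). For 74 of the 78 the 95% interval lay within 1.5-fold in either direction, and for 77 within 2-fold. Of the 7480 protein-coding genes of like CPM, 5609 lay within 1.5-fold and 7063 within 2-fold. Of all 15692 genes tested, 7614 lay within 1.5-fold and 11457 within 2-fold. With scaling by library size alone the number called was also 6, but 2 of them were higher and 4 lower.

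MRPL12 had the largest response in the parental line. It was at 44.7, 53.2 and 67.4 CPM with vehicle and at 27.3, 33.2 and 26.2 CPM with Act D, without overlap, and it fell by 0.93 on the log2 scale (-0.93 ± 0.22, adjusted p = 0.00607). MRPS27 (mS27, a pentatricopeptide repeat protein of the small subunit) fell from 168, 161 and 167 CPM to 138, 116 and 132 CPM (-0.36 ± 0.08, adjusted p = 0.00609), and 276 of its exon bases are shared with PTCD2 on the opposite strand. Without parental Act D replicate 2 the adjusted p of MRPS27 was 0.0508. MRPL32 (bL32m), a large-subunit protein that is processed by a protease of the inner membrane before assembly, rose from 59.0, 53 and 46.9 CPM to 79.2, 75.1 and 76.2 CPM (0.54 ± 0.09, adjusted p = 0.000595). MRPL44 rose from 50.4, 52.8 and 50.2 CPM to 68.2, 69.7 and 64.4 CPM (0.40 ± 0.09, adjusted p = 0.0045). For each of these 4 genes the 3 libraries of one treatment were all above those of the other. MRPL9 (bL9m; 0.31 ± 0.09, adjusted p = 0.0177), which shares 265 exon bases with OAZ3 on the opposite strand, and MRPS30 (0.23 ± 0.08, adjusted p = 0.0435) also rose. The calls of MRPL12, MRPL32 and MRPL44 held under all 14 alternatives, whereas MRPL9 lost its call in 7 of them and MRPS30 in 11.

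In the libraries labelled uL3Δ only 2 genes were called with Act D (2.56%, against 11.9% of all genes tested), both lower (2.56%, against 8.4%), and 0 were higher (against 3.51%). Values of 14 genes did not overlap between treatments (17.9%, against 27.6%), and for 73 of the 78 the 95% interval lay within 1.5-fold. This was so for 5849 of the 7480 protein-coding genes of like CPM and for 7809 of all 15692 genes tested. MRPL14 (uL14m), which holds the binding site of the assembly factor MALSU1, was at 49.7, 55.7 and 48.4 CPM with vehicle and at 38.5, 37.3 and 41.4 CPM with Act D (-0.39 ± 0.10, adjusted p = 0.0109). MRPS18A was at 44.4, 46.2 and 43.5 CPM and at 38.3, 35.6 and 36.4 CPM (-0.28 ± 0.09, adjusted p = 0.0434). Both fell without overlap. Without vehicle replicate 2 of the libraries labelled uL3Δ, 0 genes were called (MRPL14, adjusted p = 0.053; MRPS18A, adjusted p = 0.114), while with scaling by library size alone 7 were called, all lower.

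Whether the response itself differed between the lines was tested by the interaction, which is the response in libraries labelled uL3Δ minus that in the parental line. None of the 78 genes was called by edgeR (0%, against 6.53% of all genes tested). An unadjusted p under 0.05 was found for 8 of the 78, against 3326 of all 15692 genes tested. DESeq2 called 1 of the 78, MRPL44 (-0.38, adjusted p = 0.0488). The genes that responded in one line are therefore given side by side. MRPL12 changed by -0.93 in the parental line and by -0.32 ± 0.23 in libraries labelled uL3Δ (interaction 0.61 ± 0.31, adjusted p = 0.283). MRPL32 changed by 0.54 and 0.14 ± 0.10 (interaction -0.39 ± 0.13, adjusted p = 0.0917), and MRPL44 by 0.40 and 0.03 ± 0.09 (interaction -0.37 ± 0.13, adjusted p = 0.0889). The 95% interval of the interaction was from -0.06 to 1.27 for MRPL12 and from -0.68 to -0.11 for MRPL32, neither adjusted for the number of genes, and a response that differs between the lines was not shown for any of them. MRPS27 changed by -0.10 ± 0.09, MRPL9 by -0.02 ± 0.08 and MRPS30 by -0.05 ± 0.08 in libraries labelled uL3Δ. In the parental line MRPL14 changed by -0.04 ± 0.09 and MRPS18A by -0.23 ± 0.09 (adjusted p = 0.0725).

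**Figure D4:**
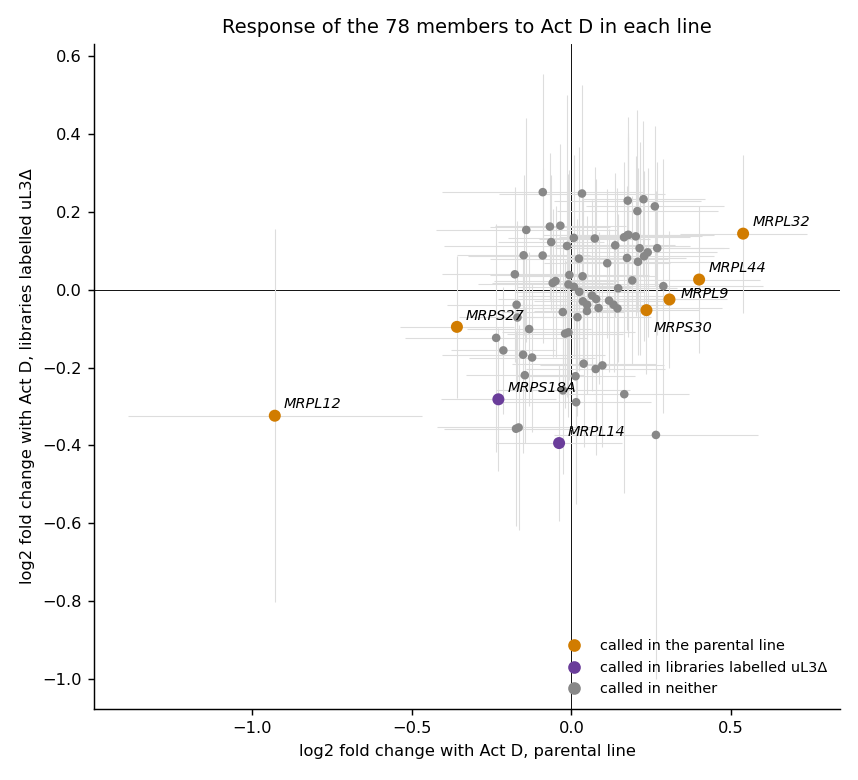
Response of each of the 78 MRP genes to Act D, as the log2 fold change of Act D minus vehicle in the parental line (horizontal axis) and in libraries labelled uL3Δ (vertical axis), with 95% intervals in grey; coloured points had an adjusted p under 0.05 in one line. Most points lie close to 0 on both axes, and MRPL12 (-0.93 in the parental line) and MRPL32 (0.54) lie furthest out.

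Genes that work with the mitochondrial ribosome were read from the same fit in 5 lists. Of 26 assembly factors of this ribosome, with vehicle 16 were lower in libraries labelled uL3Δ (against 36.2% of all genes tested), 4 were higher and 6 were not called, and the median log2 fold change was -0.46. With Act D 17 were lower and 3 higher, with a median of -0.595. Among them were the ribosomal RNA methyltransferases MRM1 (-1.74 ± 0.24; 13.4 ± 1.59 and 4.11 ± 2.02 CPM) and TFB1M (-1.02 ± 0.14), MTERF3 (-1.62 ± 0.13; 44.8 ± 2.22 and 14.5 ± 2.01 CPM), the large-subunit RNA factor FASTKD2 (-1.11 ± 0.09) and the small-subunit factor RBFA (-1.11 ± 0.11), while NGRN was higher (1.18 ± 0.07). The largest adjusted p of these 6 was 3.98e-06. With vehicle, 14 to 20 of the 26 were lower and 3 or 4 higher under all alternatives. No test was made of the list.

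The next counts stand beside 35.1% higher and 36.2% lower of all genes tested with vehicle, and 35.1% and 35.3% with Act D. Of the 5 ribosomal proteins without an MRP symbol, 3 were higher and 1 lower with vehicle and 2 and 1 with Act D, but with scaling by library size alone 1 was higher and 2 lower with vehicle. DAP3 (mS29), a GTP-binding protein of the small subunit, was higher (0.60 ± 0.08, adjusted p = 2.17e-06), as were AURKAIP1 (0.47 ± 0.14) and GADD45GIP1 (0.44 ± 0.14), the latter 2 not with scaling by library size alone (0.24 and 0.20), and PTCD3 was lower (-0.48 ± 0.08). Of 16 translation factors and partners 5 were higher (31.2%) and 4 lower (25%) with vehicle, and 5 and 5 with Act D. On the higher side with vehicle were the elongation factor GFM1 (0.72 ± 0.07), GFM2 (0.90 ± 0.09) and the RNA-binding SLIRP (0.87 ± 0.09). On the lower were the recycling factor MRRF (-0.90 ± 0.09) and the release factor homologue MTRFR (-0.92 ± 0.13). Of 8 genes of mitochondrial transcription and replication 3 were higher and 1 lower with vehicle, and 3 and 3 with Act D. TFAM, which packages mitochondrial DNA, was higher (0.89 ± 0.10) and the helicase TWNK lower (-0.98 ± 0.11). With scaling by library size alone these last lists stood with vehicle at 4 higher and 6 lower, and at 1 higher and 3 lower.

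Of 9 nuclear regulators of mitochondrial genes 5 were higher (55.6%, against 35.1% of all genes tested) and 2 lower (22.2%, against 36.2%) in libraries labelled uL3Δ with vehicle. With Act D 3 were higher and 3 lower, and with scaling by library size alone the vehicle counts were 4 and 3. PPARGC1A, a coactivator of mitochondrial biogenesis, was at 0.235 ± 0.198 CPM in the parental libraries and at 4.76 ± 1.35 CPM in the others (SD, n = 3). At so low a level the fitted fold change depends on the prior count, and none is given. YY1 was higher (1.04 ± 0.08), as was ESRRA (1.13 ± 0.12). PPRC1 (-0.80 ± 0.09) and HCFC1 (-0.54 ± 0.12) were lower, and NRF1 was not called (-0.14 ± 0.12, adjusted p = 0.314). With Act D, NRF1 fell in both lines, by 0.61 ± 0.13 in the parental line (adjusted p = 0.00241) and by 1.00 ± 0.14 in libraries labelled uL3Δ (adjusted p = 0.000106). PPARGC1B fell by 1.18 ± 0.18 and 1.30 ± 0.18 (adjusted p = 0.000124 and 0.000159). Over the 5 lists, 12 of 64 genes were called for Act D in the parental line (18.8%, against 18.7% of all genes tested) and 7 of 64 in libraries labelled uL3Δ (10.9%, against 11.9%). In the parental line 1 assembly factor was higher and 3 lower, 1 translation factor was higher and 1 lower, 2 transcription genes were higher and 0 lower, and GADD45GIP1 was higher (0.52 ± 0.14) and PTCD3 lower (-0.33 ± 0.08). In the libraries labelled uL3Δ, 2 assembly factors, 1 translation factor and 4 of the 9 nuclear regulators were lower, and 0 genes of the 5 lists were higher.

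**Figure D5:**
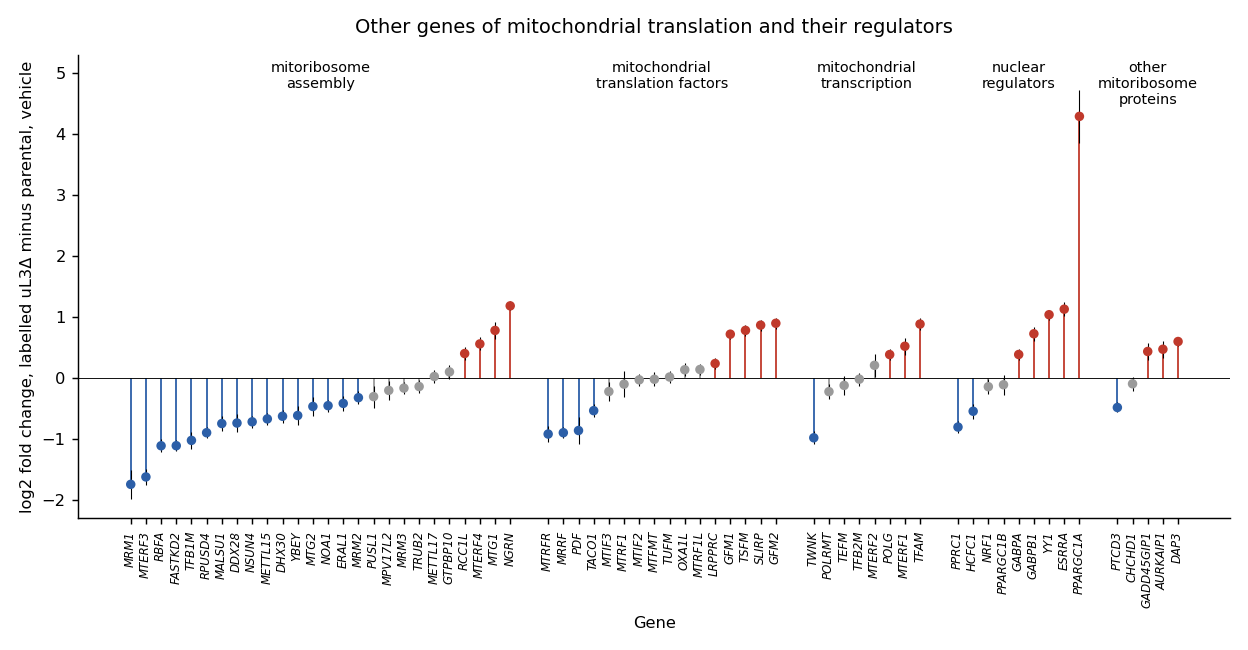
Log2 fold change of the libraries labelled uL3Δ minus the parental libraries with vehicle (vertical axis; bars are SE) for the genes of 5 lists of mitochondrial translation and its regulators, in order within each list; red and blue points had an adjusted p under 0.05. The assembly factors lie mostly below 0, with 16 of 26 lower, and the other lists lie on both sides.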

How the data were processed

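RNA from 12 libraries, 3 in each of 4 groups given by the sample labels, was sequenced by the authors as paired ends on a NovaSeq 6000 with a TruSeq kit that does not mark strand. Per the labels and the study's methods, the authors removed adapters, rRNA and PhiX reads and ran RSEM 1.2.25 on Ensembl transcripts of hg38. The deposited expected counts are RSEM's estimates per gene, which split reads shared between genes, and the TPM values deposited by the authors are scaled per length within each library. One library, parental vehicle replicate 2, was deposited per transcript and was summed per gene here.

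Expected counts were rounded to whole numbers, matched to GENCODE v44 (60261 of 60617 identifiers), filtered with filterByExpr, scaled by TMM (factors 0.847 to 1.15) and tested with edgeR 4.0.16's quasi-likelihood test in R 4.3.3 on all 12 libraries and 15692 genes, with Benjamini-Hochberg adjustment. The log2 fold changes carry SE or 95% intervals from this fit. Totals between 10087925 and 21138886 gave every MRP gene but MRPL23 at least 50 counts in each library. The steps were tested on simulated counts. Alternatives were DESeq2 1.42.0, other scalings, no filter, the replicate block, only the groups compared, corrections for transcript length and, added after seeing the data, GC content with length, and leaving out each library. The genes named are, in each comparison, up to 5 called MRP genes in each direction with the largest absolute log2 fold change, 11 MRP genes of set roles, and the called genes of the 5 lists with the largest changes. The MRP genes, roles, lists and rules were chosen with earlier results of these data known.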

Additional observations from a re-analysis of the deposited data

Results flagged for a closer look

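Of the 64 genes in the 5 lists, 3 (4.69%, against 6.53% of all genes tested) had a response to Act D that differed between the lines by the interaction test of edgeR, given as the log2 response of libraries labelled uL3Δ minus that of the parental line. METTL15, which methylates the small-subunit ribosomal RNA of mitochondria, had an interaction of 0.57 (adjusted p = 0.0321), with responses of -0.65 in the parental line and -0.08 in the other. MRM3, which methylates the large-subunit ribosomal RNA, had an interaction of -0.56 (adjusted p = 0.0241), with responses of 0.49 and -0.08. POLG, the mitochondrial DNA polymerase, had an interaction of -0.57 (adjusted p = 0.00916), with responses of 0.74 and 0.17. The calls of METTL15 and MRM3 were lost when some single libraries were left out, and METTL15 also with scaling by library size alone (adjusted p = 0.0533), without the filter (0.0744) and with the replicate block (0.0592).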

How the results depend on the processing

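Between the lines, 52 to 57 MRP genes were called with vehicle and 52 to 62 with Act D over all alternatives, against 56 and 60. The split of higher and lower calls moved with the scaling and with transcript length. For Act D in the parental line, leaving out 1 library gave 3 to 5 genes (3 without parental Act D replicate 2), against 6. For Act D in libraries labelled uL3Δ, against 2 genes, scaling by library size alone gave 7, upper-quartile scaling 1, transcript length 4, GC content with length 7, the 2 groups alone 1, and leaving out 1 library 0 to 3 (0 without vehicle replicate 2, 1 without vehicle replicate 1). For the interaction, against 0, DESeq2 gave 1 (MRPL44), no filter 1 (MRPL12), GC content with length 3 (MRPL32, MRPL44 and MRPS17), and leaving out 1 library 0 to 1. The cause was not tested.

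The fit with a replicate block gave 55 and 58 genes between the lines, 5 and 1 for Act D and 0 for the interaction. Libraries with the same number had correlations of deviations from -0.104 to 0.101, so the numbers were not taken as pairs.

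Over 97 values of named genes, 1413 values under alternatives held 1311 with direction and call kept, 63 that lost a call, 21 that gained one and 18 with the opposite sign, all of the latter uncalled. For MRPL44 with Act D in libraries labelled uL3Δ these were -0.084 with library size, -0.020 without the filter and -0.029 with GC content and length, and -0.080 to 0.075 leaving out 1 library. For MRPL9 there it was 0.038 with upper-quartile scaling, and -0.10 to 0.017 leaving out 1 library, and for MRPS30 0.011 with upper-quartile scaling. For MRPL14 with Act D in the parental line, leaving out 1 library gave -0.10 to 0.019. Between the lines with vehicle, library size gave MRPL3 -0.079, MRPS36 -0.073 and MRPS18A -0.19, transcript length gave MRPS18A -0.15, GC content with length gave MRPS18A -0.17 and MRPS36 -0.052, and leaving out 1 library gave MRPS18A -0.014 to 0.080. The interaction of MRPS18A was then -0.092 to 0.0033.

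Depth limits MRPL23 most, with 13 counts in its lowest library. With 3 libraries a group, Act D responses under 1.5-fold could be missed.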

Other observations

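Of 86 genes with an MRP symbol that are not protein-coding, such as pseudogenes and antisense RNAs, 5 passed the filter, and all 5 were called between the lines with both treatments, where 71.3% and 70.4% of all genes tested were called. With vehicle, 3 were higher in libraries labelled uL3Δ: MRPS31P4 by 1.90 and MRPS31P5 by 1.62, both pseudogenes of MRPS31 whose reads may be split with it, and MRPS30-DT, a divergent transcript at MRPS30, by 1.42 on the log2 scale. The other two were lower, MRPL20-DT by -0.74 and MRPL20-AS1 by -1.15. MRPL20 itself, which shares 138 exon bases with MRPL20-AS1 on the opposite strand, had a log2 fold change of 0.50, the opposite sign. Without strand in the reads, those shared bases cannot be assigned to one of them. MRPL20-AS1 was the one of the 5 called for Act D in the parental line (-0.59, adjusted p = 0.0142 by edgeR), and 0 were called in libraries labelled uL3Δ.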
